A study of Arabidopsis thaliana with 24 samples.

Results

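The 24 cytochrome P450 genes described here are those measured in an array series of Arabidopsis thaliana by a feature that carries exactly 1 gene with a symbol of the CYP form, that is CYP, a family number, letters for the subfamily and a gene number. They were taken from the 16746 features with exactly 1 gene among 28583 features in all, and each of the 24 loci had 1 feature. The RefSeq gene table of assembly TAIR10.1 holds 225 symbols of this form, so most P450 genes of the plant are not among the 24. Of the 24, 20 belong to the subfamily CYP71B, and the other 4 are CYP78A9, CYP79A2, CYP79C2 and CYP84A4. All 24 matched the RefSeq table by gene identifier and carried the same symbol there.

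Cytochrome P450s are haem enzymes, mostly of the endoplasmic reticulum, that use electrons from NADPH, passed on by a reductase, to insert oxygen into small molecules. In plants they shape hormones, cell wall phenolics, sterols and the defence compounds of each lineage. Enzymes of the CYP79 family turn amino acids into aldoximes, the entry step of glucosinolates, which are sulfur-rich defence compounds of the cabbage order. The best known CYP71B enzyme is CYP71B15, or PAD3, which makes the sulfur-containing phytoalexin camalexin and is not among the 24. For most of the other CYP71B enzymes no role is given here.

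The plants were grown in hydroponic culture in short days of 8 h light and 16 h dark. After 5 weeks of full nutrients they either kept that supply or were moved for 5 days to a medium deficient in sulfur. The 8 groups of 3 arrays were roots and rosettes of the mutant rpt2-3a, sulfur-deficient and at normal sulfur, and roots and rosettes of Col-0, sulfur-deficient and at normal sulfur. Col-0 is the common laboratory accession, and rpt2-3a carries a mutant allele of RPT2, which encodes an ATPase of the proteasome's regulatory particle. The labels do not describe the lesion, and no feature used here is named for RPT2A, so the genotype labels were not checked by that gene. By the design text, replicates within a group are biological. Values are deposited log2 expression values, and errors of differences are standard errors (SE) of a limma fit across all features. A gene passed where its two-sided p, adjusted by Benjamini-Hochberg over all 28583 features of the comparison, was under 0.05.

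Organ markers followed the labels. The photosynthesis genes RCA and PSAE1 averaged 3.86 and 2.97 over the 12 root arrays, against 10.9 and 11.34 over the 12 rosette arrays, and the root hair expansin EXPA7 averaged 7.66 in roots and 2.18 in rosettes, with no overlap between organs. The median value of an array lay between 4.47 and 4.55 in roots and between 4.03 and 4.14 in rosettes. Arrays of a group correlated across features with r from 0.989 to 0.994. In Col-0 roots the sulfur deficiency genes BGLU28 and SDI2 rose by 2.11 ± 0.28 and 1.13 ± 0.17 on the log2 scale (SE, n = 3 per supply, limma adjusted p = 0.0024 and 0.0042). Neither passed elsewhere. BGLU28 differed by 0.56 in rpt2-3a roots, 0.13 in rpt2-3a rosettes and 1.43 in Col-0 rosettes, and SDI2 by 0.24, -0.72 and -0.49 in the same order.

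The level of the P450 genes was read against the median of all features on each array. The median splits the features of an array evenly. The share of all features below it on every array was not computed, so these counts have no background. On all 24 arrays, 12 of the 24 genes were below the median of all features, namely CYP79A2, CYP79C2, CYP84A4, CYP71B16, CYP71B19, CYP71B21, CYP71B24, CYP71B25, CYP71B31, CYP71B32, CYP71B37 and CYP71B38. In roots 20 genes were below the array median on all 12 arrays and 4 were above it, whereas in rosettes 12 were below, 7 were above and 5 varied between arrays. No detection call was used, so how much of a low value is background is not known, and a difference against a dim group may be understated.

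The genes lie close together on the chromosomes. By order in the RefSeq table of TAIR10.1, CYP71B28 (AT1G13090) and CYP71B29 (AT1G13100) are direct neighbours. A run of 13 members, CYP71B16 (AT3G26150) to CYP71B37 (AT3G26330), falls within 20 protein-coding genes, which also include CYP71B17, CYP71B3 and CYP71B4. CYP71B5 (AT3G53280), CYP71B31 (AT3G53300) and CYP71B32 (AT3G53305) form a further run of 3 within 5 genes. The remaining 6 members stand apart, namely CYP71B6 (AT2G24180), CYP71B38 (AT3G44250), CYP79C2 (AT1G58260), CYP79A2 (AT5G05260), CYP78A9 (AT3G61880) and CYP84A4 (AT5G04330). Probe sequences were not used, so signal shared between near-identical CYP71B copies was not tested.

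**Figure D1:**
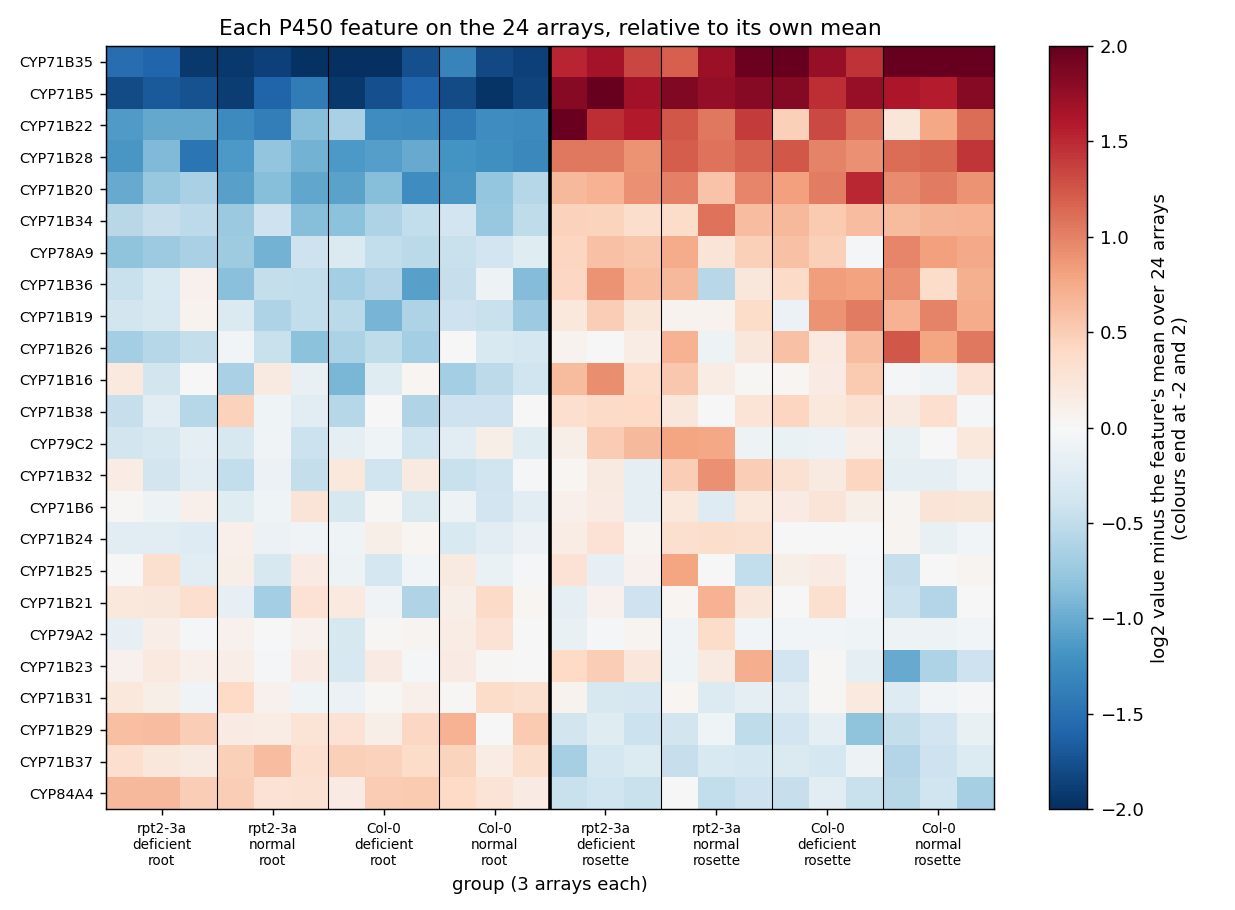
Log2 values of the 24 P450 features (down the page) on each of the 24 arrays (across), less each gene's own mean over the 24 arrays, with colours ending at -2 and 2. Arrays stand by group, with roots left of rosettes, and the colour change between organs is larger than that between genotypes or sulfur supplies for CYP71B35, CYP71B5 and CYP71B22, among others.

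Roots and rosettes differed in 16 to 19 of the 24 genes, depending on genotype and supply, and most of these genes were lower in roots. In sulfur-deficient rpt2-3a 14 genes were lower and 3 higher in roots, when 61.7% of all features passed, 19.9% as lower and 41.8% as higher. In rpt2-3a at normal sulfur 13 were lower and 3 higher, when 62.5% of all features passed, 19.8% as lower and 42.7% as higher. In sulfur-deficient Col-0 13 were lower and 3 higher (background 63.7% in all, 19.8% lower and 43.9% higher), and in Col-0 at normal sulfur 13 were lower and 6 higher (background 63.4% in all, 20.1% lower and 43.3% higher). The median difference of the 24 genes, root minus rosette on the log2 scale, was -0.58 in sulfur-deficient rpt2-3a, -0.57 in rpt2-3a at normal sulfur, -0.49 in sulfur-deficient Col-0 and -0.43 in Col-0 at normal sulfur. Over all features the median was 0.19, 0.20, 0.22 and 0.21 in the same comparisons. In whole organs, fewer cells that express a gene and less RNA per cell cannot be told apart.

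These counts depend on how arrays of different organs are scaled, because the root arrays have the higher median. The 5th percentile was alike, at 1.78 to 1.89 in roots and 1.78 to 1.9 in rosettes, so centring shifts dim genes towards lower in roots. With each array centred on its median, the median difference over all features was -0.23 to -0.22 in 3 comparisons and -0.16 in Col-0 at normal sulfur. The P450 genes then split into 18 lower and 2 higher in sulfur-deficient rpt2-3a, 20 lower and 1 higher in rpt2-3a at normal sulfur and in sulfur-deficient Col-0, and 16 lower and 3 higher in Col-0 at normal sulfur. Over all features the lower calls grew as well, to 42.5%, 43.4%, 42.4% and 38.4% of features in sulfur-deficient rpt2-3a, rpt2-3a at normal sulfur, sulfur-deficient Col-0 and Col-0 at normal sulfur, and the higher calls were 26%, 25.3%, 26.8% and 26.9%. A set of 10 genes was lower in roots in all 4 comparisons, in the deposited values and under both other scalings. It consists of CYP78A9 and 9 CYP71B genes, namely CYP71B5, CYP71B19, CYP71B20, CYP71B22, CYP71B26, CYP71B28, CYP71B34, CYP71B35 and CYP71B36. Of all features 15.7% were lower in roots in all 4 comparisons of the deposited values.

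CYP71B35 had the largest difference in 3 of the 4 comparisons, and CYP71B5 in sulfur-deficient rpt2-3a. In roots its values were 2.42, 2.36 and 2.02 in sulfur-deficient rpt2-3a, 2.02, 2.08 and 1.96 in rpt2-3a at normal sulfur, 1.84, 1.91 and 2.19 in sulfur-deficient Col-0, and 2.60, 2.14 and 2.08 in Col-0 at normal sulfur. In rosettes they were 5.47, 5.61 and 5.28 in sulfur-deficient rpt2-3a, 5.13, 5.65 and 5.90 in rpt2-3a at normal sulfur, 6.01, 5.68 and 5.38 in sulfur-deficient Col-0, and 6.46, 6.11 and 6.32 in Col-0 at normal sulfur. All 12 root arrays were thus far below all 12 rosette arrays, and the 3 Col-0 rosettes at normal sulfur were the highest of all. The difference was -3.19 ± 0.18 in sulfur-deficient rpt2-3a (SE, n = 3 per organ), or 9.11-fold lower in roots, and -4.02 ± 0.18, or 16.3-fold lower, in Col-0 at normal sulfur. It was 11.6-fold lower in rpt2-3a at normal sulfur and 13.1-fold lower in sulfur-deficient Col-0.

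CYP71B5 differed almost as much and varied little between conditions. Its lowest, median and highest values were 1.88, 2.06 and 2.44 over the 12 root arrays, against 5.31, 5.62 and 5.86 over the 12 rosette arrays. Its difference stayed between -3.58 and -3.44 over the 4 comparisons. At normal sulfur it was 10.9-fold lower in roots in rpt2-3a and 11.5-fold lower in Col-0. Its neighbour CYP71B31, whose enzyme oxidises linalool in flowers, passed only in Col-0 at normal sulfur, with 0.35 ± 0.13 (adjusted p = 0.040), and there its difference is -0.027 once arrays are centred on their medians. In the deposited values the next gene, CYP71B32, passed only in rpt2-3a at normal sulfur, where it was lower in roots, with a difference of -0.997 on the log2 scale. It passed as lower in all 4 comparisons with centred arrays and in 2 with quantile normalization.

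**Figure D2:**
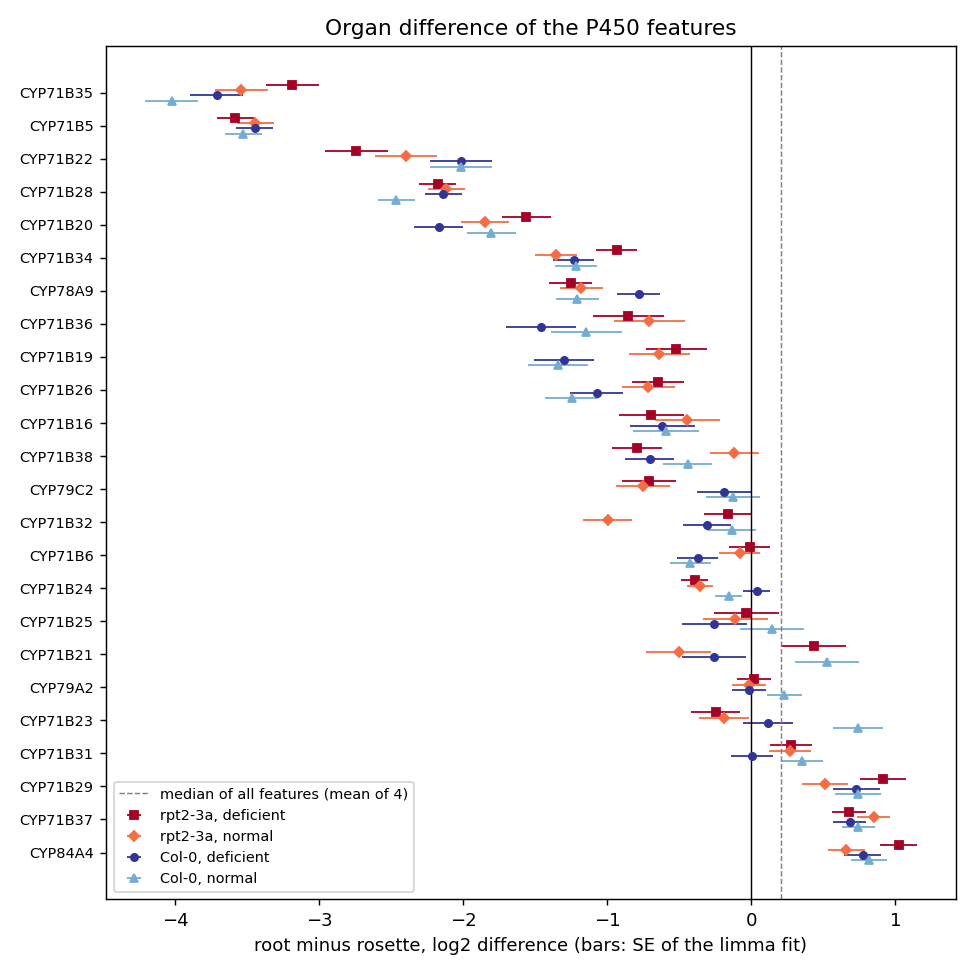
Difference between organs, root minus rosette on the log2 scale, for each of the 24 P450 features, with 1 marker for each genotype and supply and bars for the SE of the fit. CYP71B35 and CYP71B5 lie beyond -3 in all 4 comparisons, and CYP84A4, CYP71B29 and CYP71B37 lie above 0 in all 4.

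The other genes lower in roots in all 4 comparisons formed a graded series. CYP71B28 had 3.36 to 4.04 in roots and 5.72 to 6.25 in rosettes, and its difference ran from -2.46 to -2.12. CYP71B22 had 1.61 to 2.37 in roots and 3.26 to 4.99 in rosettes, and its difference ran from -2.74 to -2.01. Both genes were separated by organ on every array, which their selection by organ calls favours. CYP71B20 followed with -2.17 to -1.56, CYP71B34 with -1.36 to -0.93 and CYP71B36 with -1.46 to -0.71. CYP71B19 had -1.34 to -0.52, CYP71B26 -1.25 to -0.65, and CYP78A9, whose product promotes growth of the fruit and seed, -1.25 to -0.78. The largest adjusted p among these 10 genes in the 4 comparisons was 0.036, for CYP71B19 in sulfur-deficient rpt2-3a.

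In the deposited values 3 genes were higher in roots in all 4 comparisons, when 35% of all features were. CYP84A4, which takes part in the synthesis of arabidopyrones from phenylpropanoid precursors, had 3.45 to 3.94 in roots and 2.63 to 3.30 in rosettes, a difference of 0.66 to 1.02. CYP71B29 had 6.15 to 6.84 in roots and 5.33 to 6.06 in rosettes, a difference of 0.51 to 0.92. CYP71B37 had 2.30 to 2.77 in roots and 1.49 to 2.04 in rosettes, a difference of 0.68 to 0.85. None of the 3 overlapped between organs over the 12 arrays of each. Their selection by organ calls favours this, and the share of all features without overlap is not given here. With arrays centred on their medians none of them passed in all 4 comparisons, CYP84A4 passing in 3 and the other 2 genes in 2 each. With quantile normalization CYP71B37 passed as higher in all 4, at 0.59 to 0.77, and CYP84A4 and CYP71B29 in 3 each.

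Neighbours did not move as 1 block. CYP71B28 was lower in roots in all 4 comparisons while the adjacent CYP71B29 was higher in the deposited values. In the run of 13 genes, 7 were lower in roots in all 4 comparisons and 1, CYP71B37, was higher. CYP71B35, CYP71B36 and CYP71B37 follow each other directly and differed by -4.02, -1.14 and 0.74 between the organs of Col-0 at normal sulfur. Differences between genes were not tested.

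Of the remaining genes, CYP71B25 and CYP79A2 passed in no organ comparison of the deposited values, but with arrays centred on their medians they were lower in roots in 2 and 3 comparisons. With quantile normalization neither of these genes passed in any organ comparison. In the deposited values CYP71B21 and CYP71B23 passed as higher in roots only in Col-0 at normal sulfur. With centred arrays neither passed as higher, and each passed as lower in 2 comparisons. In the deposited values CYP71B16, CYP71B24 and CYP71B38 were lower in roots in 2 or 3 comparisons each. CYP79C2, a CYP79 family member, was lower in roots in sulfur-deficient rpt2-3a (-0.71, adjusted p = 0.0021) and in rpt2-3a at normal sulfur (-0.75, adjusted p = 0.0013), while its differences in Col-0 were -0.19 in deficiency and -0.13 at normal sulfur and did not pass. The genotype difference of CYP79C2 did not itself differ between organs by the test, with -0.62 ± 0.26 at normal sulfur (adjusted p = 0.32) and -0.52 ± 0.26 in deficiency (adjusted p = 0.56). Without rosette array 3 of rpt2-3a at normal sulfur, the first of these passed. CYP71B6, which acts on indole-3-acetonitrile, differed by -0.01 in sulfur-deficient rpt2-3a and by -0.08 at normal sulfur and did not pass there. In Col-0 it was lower in roots in deficiency (-0.37, adjusted p = 0.028) and at normal sulfur (-0.42, adjusted p = 0.013). With centred arrays CYP71B6 passed as lower in roots in all 4 comparisons, at -0.80 to -0.42, and with quantile normalization in 3. CYP79C2 also passed as lower in all 4 with centred arrays, and in 2 with quantile normalization.

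**Figure D3:**
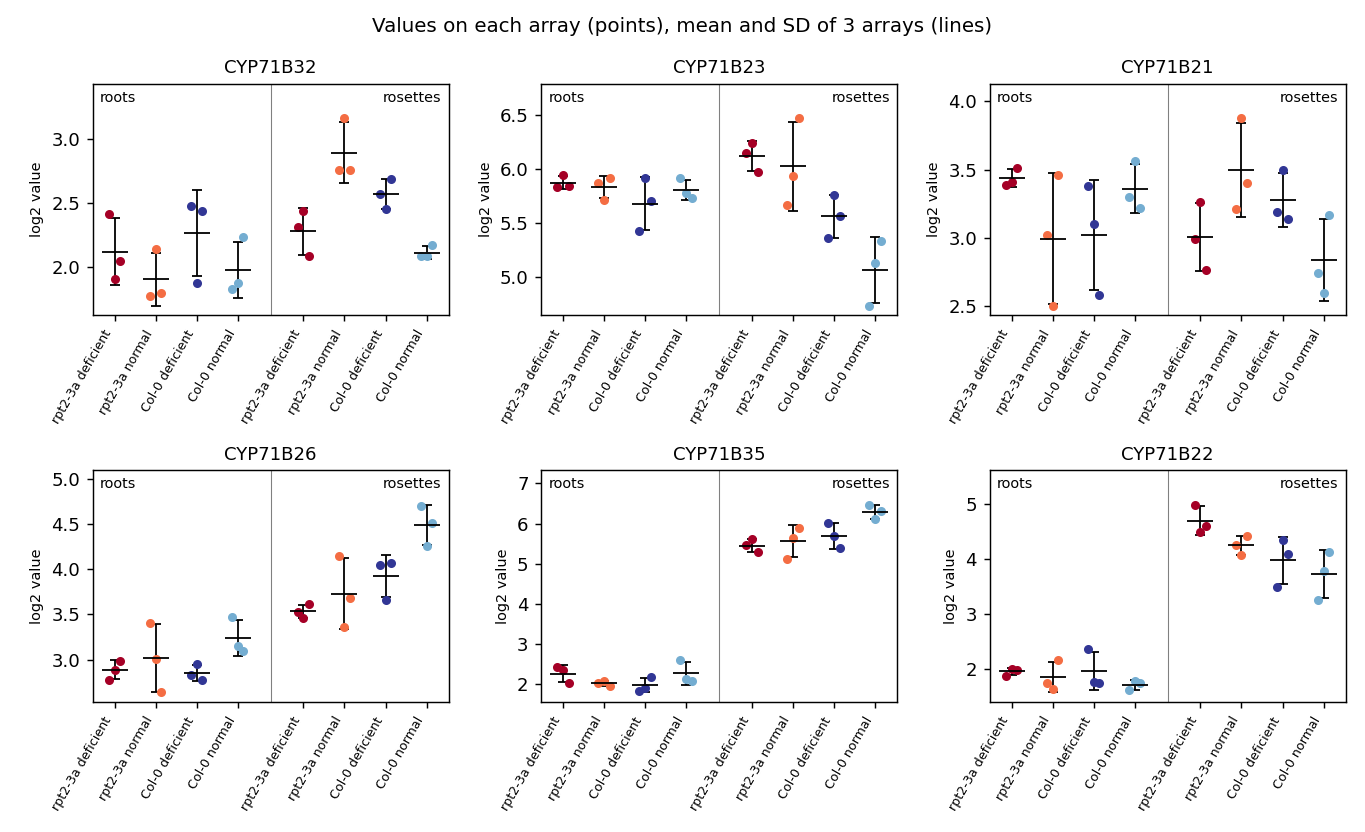
Log2 values on each array for 6 P450 features, with 1 point for each array, lines for the mean and SD of each group's 3 arrays and, from left to right, rpt2-3a before Col-0 and sulfur-deficient before normal in each organ. CYP71B35 and CYP71B22 separate by organ, and CYP71B32 in rosettes is highest on the 3 arrays of rpt2-3a at normal sulfur.

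The comparison of genotypes asked how P450 expression differs between rpt2-3a and Col-0 at each supply. In rosettes at normal sulfur 2 of the 24 genes passed, CYP71B32 and CYP71B23, and both were higher in rpt2-3a. Of all features 2.01% passed, 0.924% as higher. CYP71B32 had 2.76, 3.17 and 2.76 in rpt2-3a, against 2.08, 2.08 and 2.17 in Col-0. The groups did not overlap, and the second rpt2-3a array stood highest. All these values are dim, as the gene was below the array median on all 24 arrays. The difference was 0.79 ± 0.13, or 1.73-fold (SE, n = 3 per genotype, limma adjusted p = 0.012), and of the fits that left out 1 of these arrays, only that without Col-0 array 1 missed the threshold (adjusted p = 0.057).

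CYP71B23 had 5.66, 5.93 and 6.47 in rpt2-3a, against 4.73, 5.13 and 5.33 in Col-0. The 3 mutant arrays lay above the 3 Col-0 arrays, and both groups spread widely. The difference was 0.96 ± 0.20, or 1.94-fold (SE, n = 3 per genotype, limma adjusted p = 0.029). The call was lost without Col-0 array 1, Col-0 array 2, rpt2-3a array 2 or rpt2-3a array 3, with adjusted p between 0.057 and 0.13. In a fit of only these 2 groups neither gene passed (adjusted p = 0.066 for CYP71B32 and 0.13 for CYP71B23).

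A further group of genes had larger adjusted p and did not pass. CYP71B26 had 4.15, 3.36 and 3.68 in rpt2-3a, against 4.70, 4.25 and 4.51 in Col-0. Its mutant arrays were all below the Col-0 arrays, with a difference of -0.76 ± 0.18 (adjusted p = 0.056). CYP71B24, dim throughout, differed by 0.38 ± 0.10 (adjusted p = 0.064), CYP71B35 by -0.74 ± 0.20 (adjusted p = 0.080) and CYP71B21 by 0.66 ± 0.20 (adjusted p = 0.12). Without rpt2-3a array 3, CYP79C2 and CYP71B35 passed and CYP71B23 did not. CYP79C2 had 2.97, 2.95 and 2.08 in rpt2-3a, the last being array 3, against 2.03, 2.18 and 2.39 in Col-0. In all, 11 of the 24 genes had an unadjusted p under 0.05, when 14.3% of all features did. The arrays of the 2 genotypes did not overlap for 8 genes, 4 higher and 4 lower in rpt2-3a, when 17.5% of all features did not overlap, 7.98% higher and 9.57% lower.

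In sulfur-deficient rosettes none of the 24 genes passed, when 0.322% of all features did, and 3 had an unadjusted p under 0.05 in limma, compared with 10.4% of all features. CYP71B22 had 4.99, 4.50 and 4.60 in rpt2-3a, against 3.50, 4.34 and 4.09 in Col-0. The mutant arrays were above those of Col-0 by 0.72 ± 0.23 (adjusted p = 0.28). CYP71B23 kept the direction it had at normal sulfur, with 6.14, 6.24 and 5.97 in rpt2-3a against 5.36, 5.76 and 5.56 in Col-0, a difference of 0.56 ± 0.20 (adjusted p = 0.33). CYP71B32 did not keep it, with 2.31, 2.44 and 2.08 in rpt2-3a against 2.57, 2.45 and 2.69 in Col-0, a difference of -0.29 ± 0.13 (adjusted p = 0.46). For 17 of the 24 genes the sign of the genotype difference was the same at both supplies in rosettes, compared with 54.5% of all features.

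**Figure D4:**
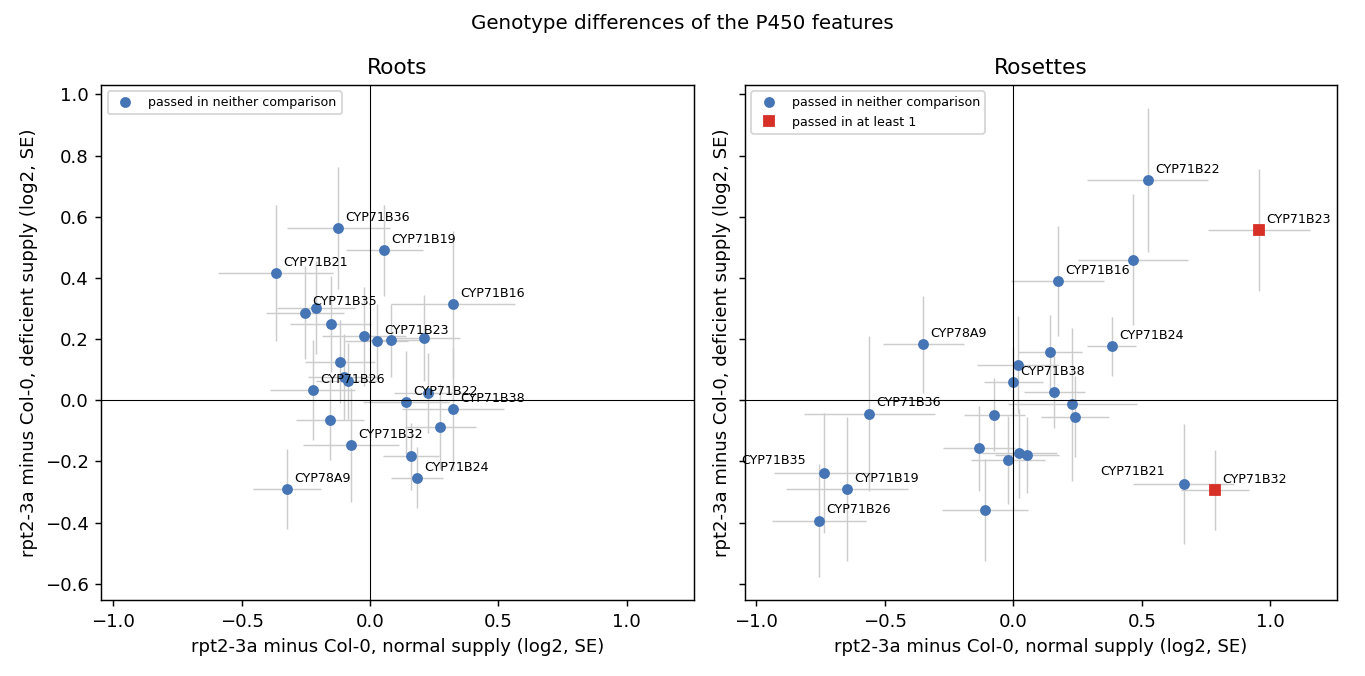
Genotype difference, rpt2-3a minus Col-0 on the log2 scale, at normal supply (horizontal) and deficient supply (vertical) for the 24 P450 features in roots and rosettes, with SE bars. In rosettes CYP71B23 lies to the upper right and CYP71B32 to the lower right, and no gene passed in roots.

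In roots no P450 gene passed between genotypes at either supply. At normal sulfur 0.577% of all features passed, and 1 of the 24 genes had an unadjusted p under 0.05 (9.23% of all features), CYP78A9, with -0.32 ± 0.13 (adjusted p = 0.46). The next genes by p were CYP71B28 with 0.27 and CYP71B24 with 0.18, neither passing. In deficiency 0.77% of all features passed, and 4 of the 24 genes had an unadjusted p under 0.05, compared with 10.8% of all features. CYP71B19 had 1.89, 1.93 and 2.33 in rpt2-3a, against 1.71, 1.33 and 1.64 in Col-0, a difference of 0.49 ± 0.15 without overlap (adjusted p = 0.19). CYP71B36 differed by 0.56 ± 0.20 (adjusted p = 0.29) and CYP71B24 by -0.25 ± 0.10 (adjusted p = 0.35). The 95% intervals of all 24 genes, each unadjusted, lay within a 2-fold change in either direction at both supplies. They bound measured differences only, because most of these genes were dim in roots, where differences may be understated. The sign was the same at both supplies for 9 of 24 genes, compared with 56.6% of all features.

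The sulfur comparison asked how the P450 genes respond to 5 days of deficiency. In rosettes of rpt2-3a 1 gene of 24 passed, CYP71B32, which was lower in deficiency, when 1.55% of all features passed and 0.686% were lower. It had 2.31, 2.44 and 2.08 in sulfur-deficient rpt2-3a, against 2.76, 3.17 and 2.76 at normal sulfur. No deficient array reached the normal ones. The difference was -0.62 ± 0.13, or 1.54-fold lower (SE, n = 3 per supply, limma adjusted p = 0.034). The call was lost when any single array was left out other than array 3 at normal sulfur, with adjusted p between 0.051 and 0.15 for the 5 arrays concerned. CYP71B21 and CYP71B16 followed with -0.49 ± 0.20 (adjusted p = 0.29) and 0.40 ± 0.18 (adjusted p = 0.38), neither passing.

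In Col-0 rosettes none of the 24 genes passed, when 0.129% of all features did, and 6 had an unadjusted p under 0.05 in limma, compared with 8.45% of all features. CYP71B32 stood at 2.57, 2.45 and 2.69 in deficiency and at 2.08, 2.08 and 2.17 at normal sulfur. Its deficient arrays were all higher, by 0.46 ± 0.13 (adjusted p = 0.27), which is the opposite sign to that in rpt2-3a. CYP78A9 differed by -0.50 ± 0.16 (adjusted p = 0.34), with 4.0, 3.89 and 3.39 in deficiency against 4.39, 4.23 and 4.17 at normal sulfur. CYP71B35 differed by -0.61 ± 0.20 (adjusted p = 0.36) and did not pass.

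CYP71B32 was thus higher in rpt2-3a than in Col-0 on all arrays at normal supply. In deficiency it was lower on all arrays, but only just, and the difference did not pass. The highest rpt2-3a array there had 2.44 and the lowest Col-0 array 2.45. This gene was below the array median on all 24 arrays, so its differences lie among dim values. The difference between its responses, rpt2-3a minus Col-0, was -1.08 ± 0.19 with a 95% interval of -1.48 to -0.68, and it did not pass after adjustment (adjusted p = 0.13). No feature of the array passed in that comparison, a background of 0%, and 3 of the 24 genes had an unadjusted p under 0.05, compared with 9.27% of all features. CYP71B21 had the same pattern of signs, its deficient-minus-normal difference being -0.49 for rpt2-3a and 0.44 for Col-0. Its values were 2.99, 3.26 and 2.76 in sulfur-deficient rpt2-3a against 3.21, 3.88 and 3.40 at normal sulfur, and 3.19, 3.50 and 3.14 in sulfur-deficient Col-0 against 2.74, 2.59 and 3.17 at normal sulfur. The supplies overlapped in both genotypes, and the difference between responses was -0.94 ± 0.28 (adjusted p = 0.32). CYP78A9 came next, with 0.53 ± 0.22 (adjusted p = 0.49).

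**Figure D5:**
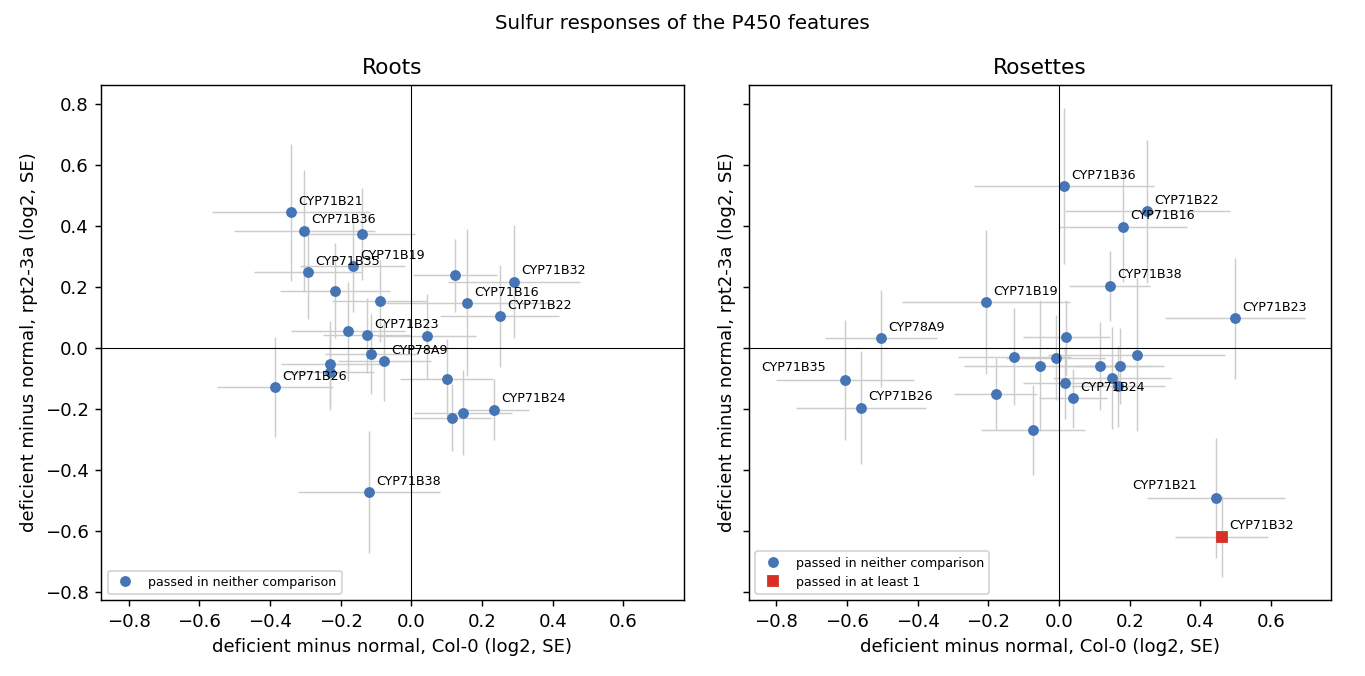
Sulfur response, deficient minus normal on the log2 scale, in Col-0 (horizontal) and rpt2-3a (vertical) for the 24 P450 features in roots and rosettes, with SE bars. CYP71B32 lies at the lower right of the rosette panel and is the only gene that passed in any of these 4 comparisons.

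In roots the P450 genes showed no response that passed in either genotype, while BGLU28 and SDI2 rose in the same Col-0 roots. In rpt2-3a roots 0.143% of all features passed, and 2 of the 24 genes had an unadjusted p under 0.05 (8.74% of all features), CYP71B29 with 0.37 ± 0.15 (adjusted p = 0.49) and CYP71B38 with -0.47 ± 0.20 (adjusted p = 0.51). CYP71B37 was next with -0.23. In Col-0 roots 0.875% of all features passed, and 2 of the 24 genes had an unadjusted p under 0.05, compared with 9.41% of all features. CYP71B26 had 2.83, 2.95 and 2.78 in deficiency, against 3.47, 3.15 and 3.10 at normal sulfur. Its arrays did not overlap, and the difference was -0.39 ± 0.16 (adjusted p = 0.47). CYP71B24 followed with 0.23 ± 0.10 (adjusted p = 0.47) and CYP71B35 with -0.29 ± 0.15 (adjusted p = 0.60). All 95% intervals of the measured differences again lay within a 2-fold change, with the same limit for dim genes. The responses of all 24 genes ran from -0.47 to 0.44 in rpt2-3a and from -0.39 to 0.29 in Col-0. Their sign was the same in both genotypes for 11 of 24 genes in roots and 13 in rosettes, compared with 55.5% and 52.7% of all features.

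The difference between the root responses of the genotypes passed for none of the 24 genes, when 0.0105% of all features did, and 6 genes had an unadjusted p under 0.05, compared with 5.45% of all features. CYP71B24 led with -0.44 ± 0.14 (adjusted p = 0.84), before CYP71B35 with 0.54 ± 0.22 and CYP71B21 with 0.78 ± 0.32 (adjusted p = 0.88 for both).

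Whether an effect differed between organs was tested over all 24 arrays, as root effect minus rosette effect. For the genotype difference at normal sulfur 1.32% of all features passed, none of the P450 genes did, and 5 had an unadjusted p under 0.05, compared with 12.2% of all features. CYP71B23 came closest with -0.93 ± 0.24 (adjusted p = 0.061). In roots this gene had 5.87, 5.71 and 5.91 in rpt2-3a against 5.91, 5.77 and 5.73 in Col-0, where the genotypes overlapped, unlike in rosettes. It passed with arrays centred on their medians (adjusted p = 0.043) and with quantile normalization (adjusted p = 0.047). CYP71B32 followed with -0.86 ± 0.24 (adjusted p = 0.080) and CYP71B21 with -1.03 ± 0.32 (adjusted p = 0.13). In deficiency 0.465% of all features passed, none of the 24 genes did, and 6 had an unadjusted p under 0.05, compared with 9.62% of all features. CYP71B24 led with -0.43 ± 0.13 (adjusted p = 0.19). CYP71B19 differed by 0.78 ± 0.30 (adjusted p = 0.36) and passed only when Col-0 rosette array 1 in deficiency was left out. CYP71B20 came next with 0.61 ± 0.24 (adjusted p = 0.37).

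For the sulfur response in rpt2-3a 0.399% of all features differed between organs and none of the P450 genes did, with 4 at an unadjusted p under 0.05, compared with 11% of all features. CYP71B32 had 0.84 ± 0.24 (adjusted p = 0.13), CYP71B21 0.94 ± 0.32 (adjusted p = 0.24) and CYP71B38 -0.68 ± 0.24 (adjusted p = 0.27). For the sulfur response in Col-0 0.469% of all features differed, none of the 24 genes passed and 2 had an unadjusted p under 0.05, compared with 8.79% of all features. CYP71B23 had -0.62 ± 0.24 (adjusted p = 0.42), CYP71B21 -0.78 ± 0.32 (adjusted p = 0.44) and CYP78A9 0.43 ± 0.21 (adjusted p = 0.59).

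By role, few of the textbook P450 pathways were represented. Of 18 lists of P450s by pathway, 4 held a member. The list of glucosinolate P450s held 2 of its 13 loci, CYP79A2, which starts benzylglucosinolate from phenylalanine, and CYP79C2, and neither passed for genotype or sulfur in either organ. The indole phytoalexin list held CYP71B6 of 6 loci, the phenylpropanoid list CYP84A4 of 7 and the growth list CYP78A9 of 6, and none of these 3 passed for genotype or sulfur either. Among partner enzymes, 1 of 11 redox partners, 2 of 13 oxidosqualene cyclases and 1 of 14 phenylpropanoid enzymes were measured. HCT, the acyltransferase that makes the substrates of the lignin P450 CYP98A3, was higher in roots in all 4 comparisons by 1.47 to 2.11, and by 1.09 to 1.68 with arrays centred on their medians. ATR3, a diflavin reductase, was higher in roots by 0.46 to 0.56 and passed in all 4, but in none of them with arrays so centred. The Col-0 sulfur response of HCT differed between organs by 0.64 ± 0.14 (adjusted p = 0.046), and neither HCT nor ATR3 passed for genotype or sulfur within an organ.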

How the data were processed

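Total RNA of 24 samples was hybridised to single-colour Affymetrix arrays, per the labels' protocols. The deposited table holds log2 expression values, 1 per feature and array, from 0.93 to 12.77. Transcriptome Analysis Console is the tool named in the submitters' processing notes. Not given in the sources used here are its version, its normalization and the genome build. Base 2 was assumed. Values were used without further normalization or filtering. The number of arrays limits the precision. Each p-value sets a difference against the spread within groups, pooled over all groups of the fit, with limma drawing on all features. No batch was given.

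Comparisons used lmFit, contrasts.fit and eBayes of limma 3.58.1 under R 4.3.3, with 1 fit per organ over 12 arrays (8 residual degrees of freedom) and 1 fit over 24 arrays (16 residual degrees of freedom) for comparisons between organs, 18 comparisons in all. P-values were adjusted over all features of a comparison. The fit was tested on simulated data. The P450 genes, lists and comparisons were chosen with earlier results of these data known. Genes named were those that passed, otherwise the 3 smallest p, and for organs up to 8 highest and 8 lowest differences, with others from the lists. CYP71B32 was also tracked in every comparison, whatever its p. A few more, chosen after their values were seen, account for every member or show overlap. Neighbours were up to 5 protein-coding genes apart in RefSeq TAIR10.1. Sequences were not used.

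Alternatives were centring of arrays, quantile normalization, eBayes with trend and robust, leaving out dim features (highest group mean under 4), a replicate block, all 24 arrays in 1 fit, only the 2 groups compared, and each array left out in turn.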

Additional observations from a re-analysis of the deposited data

How the results depend on the processing

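Of 1275 values of 99 named differences under the alternatives, 1214 kept direction and side of the threshold, 35 fell short of it, 17 newly passed it and 9 changed sign. One of these was CYP71B31 between organs of Col-0 at normal sulfur, at -0.027 with arrays centred. The others were differences of CYP71B32 that never passed, when 1 array was left out. They ran from -0.19 to 0.055 for the root genotype difference at normal sulfur, -0.27 to 0.047 for the difference of root responses, -0.28 to 0.027 for the Col-0 response between organs and -0.05 to 0.255 for the genotype difference between organs in deficiency. For the genotype difference in rosettes at normal sulfur, the count of P450 genes was 4 with trend and robust eBayes, 5 with all 24 arrays in 1 fit and 0 with only the 2 groups compared, when 3.08%, 3.38% and 0.353% of all features passed, and 0 to 3 when 1 array was left out. CYP71B26 passed with trend and robust eBayes (adjusted p = 0.034). The sulfur response of rpt2-3a rosettes gave 0 genes with dim features left out, which removes CYP71B32, and 0 with the replicate block. It gave 0 with only the 2 groups compared, and 0 to 1 when 1 array was left out. Of all features tested, 4.77% passed with dim features left out, 1.61% with the block and 1.18% with the 2 groups. At such shares a count of 0 says little about the P450 genes. With dim features left out 12 members were tested, and 10 differed between organs in rpt2-3a at each supply and 12 in Col-0 at normal sulfur, when 80.1% (rpt2-3a in deficiency), 81.5% (rpt2-3a at normal sulfur) and 81.1% (Col-0) of the 18469 features tested passed. A gene could enter this test through its higher organ alone, so the filter itself favours organ differences. These counts are therefore no support for them. For the genotype difference between organs at normal sulfur, 1 gene, CYP71B23, passed with centred arrays, quantile normalization, trend and robust eBayes, dim features left out and the replicate block. When 1 array was left out 0 to 1 passed, as in deficiency. Without any alternative, 1.32% of all features passed at normal sulfur and 0.465% in deficiency. Leaving out 1 array gave 15 to 18 genes between organs in deficient rpt2-3a and 14 to 18 in rpt2-3a at normal sulfur. It gave 14 to 16 in deficient Col-0 and 14 to 18 in Col-0 at normal sulfur. With no array left out, 61.7%, 62.5%, 63.7% and 63.4% of all features passed in the same order, so these counts are near the background.

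The labels do not say that a replicate number marks a shared source, so the numbers were not taken to pair the samples. Over 12 pairs of groups, same-numbered arrays correlated in their deviations with r from -0.07 to 0.24, and in no comparison was every pair over 0.1. An array correlated best with its own number, 1 of 3 candidates, in 37 of 72 matches. The matches share arrays, so this count cannot decide whether the samples were paired. With the replicate block, CYP71B32 lost its call in rpt2-3a rosettes (adjusted p = 0.05) and CYP71B26 gained one between genotypes in rosettes at normal sulfur (adjusted p = 0.018). Over all features, the genotype difference in rosettes at normal sulfur had 264 higher and 310 lower features in the deposited values, 316 and 257 with centred arrays.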
